A study of Mus musculus with 6 samples.

Results

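Genes that tie the extracellular matrix to a contractile actin cytoskeleton were followed in cultured mouse cortical neurons grown with a bioactive peptide material, with and without an added conducting polymer. The set holds 35 genes of the 54232 listed, chosen by symbol for their roles in focal adhesions and actin contraction. The choice was made with earlier results of these data known. Shares of the set given below beside shares of all genes therefore describe the set and do not test it. The 6 libraries came from wildtype CD1 cortical neurons, CD1 being an outbred mouse stock, and fell into 3 groups of 2 libraries, numbered repeat 1 and repeat 2 in every group. The control carries PDL in its library name. The PA group received a peptide amphiphile, a self-assembling molecule, named in its library for IKVAV, a peptide sequence derived from laminin. The PA + PS2 group is named for IKVAV plus PEDOT-S, a form of the conducting polymer PEDOT, and the labels do not say what PS2 stands for. All 6 libraries carry the same treatment label, peptide amphiphile, the control included. No culture time, dose or age of the animals is given in the sources used here.

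Cells grip the matrix through integrins, whose cytoplasmic tails are joined to actin by talin, vinculin and tensin. A complex of ILK, PINCH, parvin and kindlin strengthens this link, and kinases such as FAK and Src signal from it. Non-muscle myosin pulls on the actin filaments, which are crosslinked by α-actinins and filamins and coated with tropomyosins, calponins, transgelins and caldesmon. SRF is a transcription factor that turns on many contractile genes when free actin monomers are scarce. In neurons, adhesions and non-muscle actomyosin act in growth cones, axons and spines, whereas smooth-muscle-type contractile genes are best known from mural cells and fibroblasts.

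Libraries held 30714311 to 33923681 counts. Levels are given in CPM, the count of a gene scaled to the size of its library. The 2 repeats of each group differed far beyond sampling noise, with a chi-square per degree of freedom of 15.5 to 22.3, and were kept as separate samples. Since no label says that the repeats were separate cultures or animals, the p-values cover the spread between these libraries only, which may be technical. The labelled cell type was checked against 10 neuronal markers, whose summed level was 7830 to 8460 CPM in every library. Of the 35 genes, 34 passed the filter on low counts. The exception was Ilk, the integrin-linked kinase, with 3 to 8 counts per library, and 89.7% of its exon bases lie under Taf10 and Rrp8 on the opposite strand. Tagln (SM22α) passed at no more than 0.581 CPM, and 67.9% of its exon bases lie under opposite-strand genes. Smaller shares of the exons of Vcl (25.5%) and Cnn3 (17.7%) are covered in the same way. The sources used here do not say whether counting used strand, so the levels of Ilk, Tagln, Vcl and Cnn3 are uncertain.

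Scaled by gene length, the most abundant members were Cnn3 (calponin 3, an actin-binding regulator) at a mean of 45.8 CPM per kilobase and Flna (filamin A, an actin crosslinker) at 44.9 CPM per kilobase. They were followed by Tpm4 (a cytoskeletal tropomyosin), then Src at 27.6 CPM per kilobase and Actn4 (α-actinin 4) at 24.9. Acta2, the smooth muscle actin, reached 23.8 CPM per kilobase, close to Tpm1 at 22.4 and Srf at 20.6. Summed over the 12 contractile and thin filament genes, the level was 578 and 712 CPM in control repeats 1 and 2, 640 and 566 CPM in PA, and 464 and 415 CPM in PA + PS2. Both PA + PS2 sums thus lay below the other 4. The 6 adaptors and kinases, in contrast, summed to 412 to 437 CPM in all libraries. Ptk2 and Src, at means of 154 and 121 CPM, weigh most in that sum. Dock1, at a mean of 6.25 CPM, weighs little in it.

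**Figure D1:**
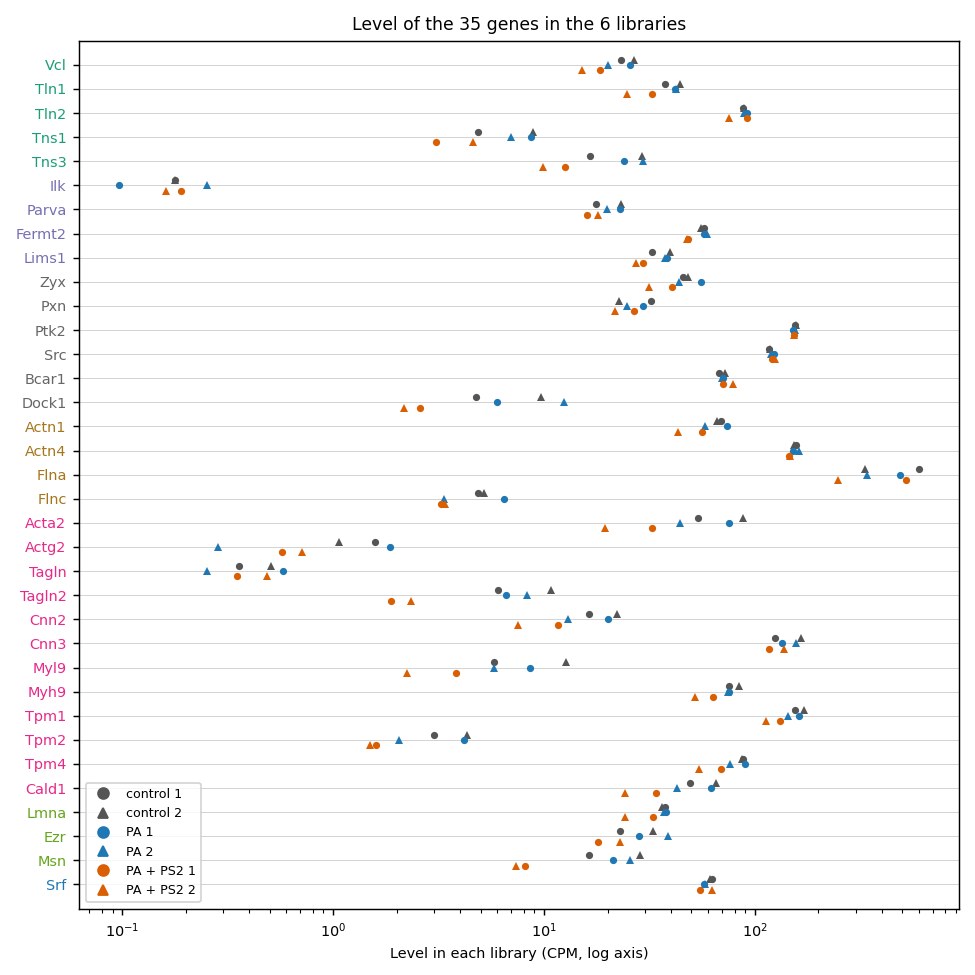
Expression of the 35 genes in each of the 6 libraries, in CPM on a log axis, ordered and colored by role, with 1 mark per library (circles for repeat 1, triangles for repeat 2). The values span from Ilk, at under 0.3 CPM, to Flna, which reached 602 CPM.

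The first comparison asked which of these genes differed between neurons given PA + PS2 and control neurons. Most of the set lay lower in PA + PS2. The median log2 fold change of the 34 tested members was -0.44, against 0.01 over all 17299 genes tested. Of the 34 values 32 were below 0, against 48.1% of all genes. Within repeat 1 the median was -0.26 and within repeat 2 it was -0.60, against 0.00 and 0.01 over all genes. Values ran from -2.00 (Tagln2) to 0.10 (Bcar1). Those below -1 were Tagln2, Myl9, Acta2, Tpm2, Actg2 and Cnn2 of the contractile genes, and Dock1, Msn and Tns3. By role, the median log2 fold change was -0.999 for the 12 contractile and thin filament genes, -0.57 for the 5 integrin-actin linkers, -0.45 for the 3 genes of the cortex and nuclear lamina, -0.37 for the 4 crosslinkers, -0.27 for the 3 tested genes of the ILK complex and -0.10 for the 6 adaptors and kinases. In bulk RNA, fewer cells of a type and less RNA per cell cannot be told apart.

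How many of these differences passed a test depended on how the repeats were treated. In edgeR's quasi-likelihood test on the 3 groups, no member passed an adjusted p of 0.05 and neither did any of the 17299 genes (0% called), although 20 members had an unadjusted p under 0.05, against 6.82% of all genes. With the repeat number added to the same model (the replicate block), 4 members fell, Tagln2, Msn, Tpm4 and Dock1, and none rose. The background was 0.538% of genes called lower and 0.139% called higher. DESeq2 without the block called 7 members lower (Tns3, Myh9, Tagln2, Cald1, Msn, Dock1 and Myl9), against 0.789% of the 13945 genes it gave an adjusted p, and 0 higher, against 0.143%. DESeq2 with the block called 9 lower (Tagln2, Msn, Tpm4, Dock1, Actn1, Cnn2, Myh9, Tpm1 and Tln1), against 1.7% of 13945 genes, and 0 higher, against 0.301%. The replicate block calls rested on particular libraries, since none was made without control 2 or without PA + PS2 2. Unless said otherwise, fold changes and standard errors (SE) below are from edgeR without the block, on a log2 scale. No member passed in that fit. Each adjusted p is from the fit named with it, so it may come from another fit than the SE beside it.

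Counting libraries gave the same direction without a model. In 24 of 34 members both PA + PS2 libraries lay below both controls, against 17.1% of all genes, and in 1 member, Src, both lay above, against 16.6%. Both PA + PS2 libraries lay below all 4 others in 21 members (11.2% of all genes) and above all 4 others in 0 members (9.42%). Matching the repeats, 30 members were lower in PA + PS2 in both repeats, against 28% of genes. As the set was chosen with earlier results known, these counts are a description.

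**Figure D2:**
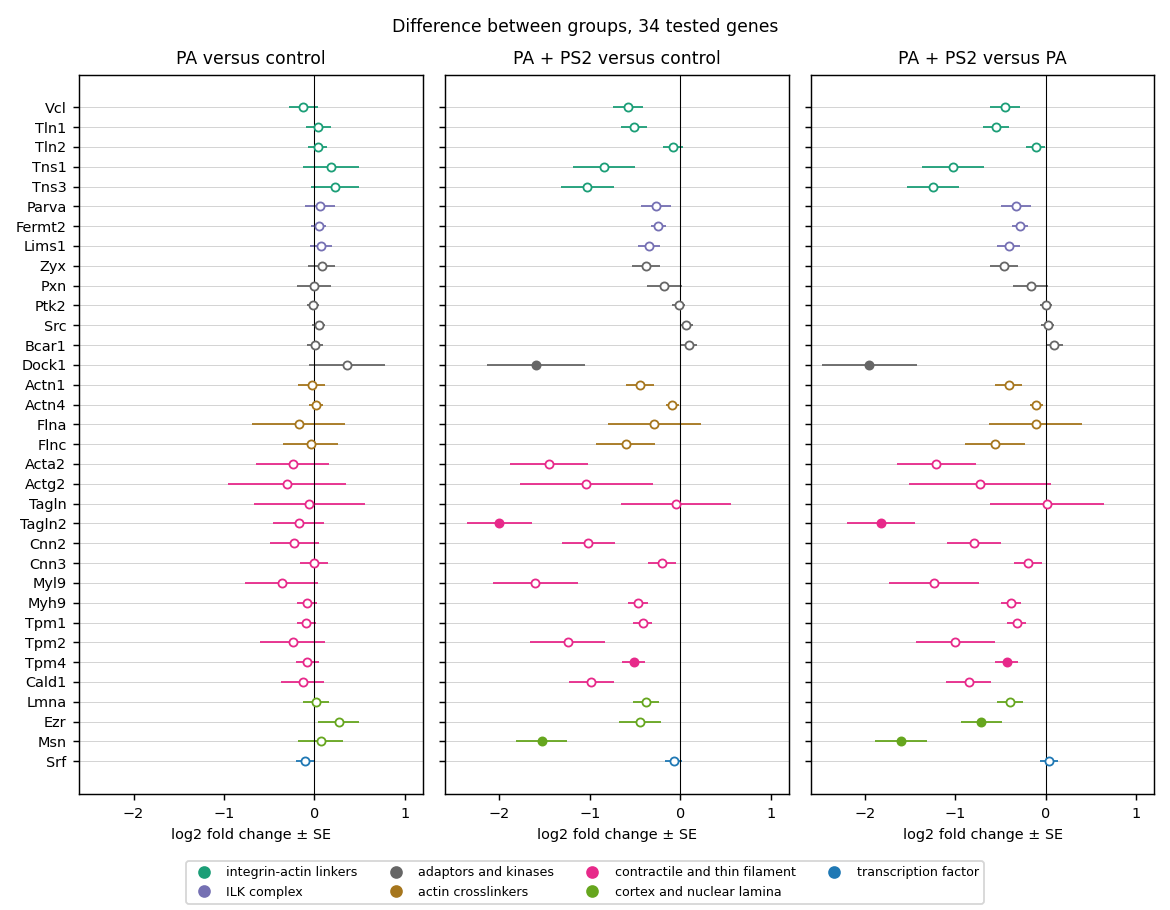
Log2 fold change of each tested member with its SE in PA versus control, PA + PS2 versus control and PA + PS2 versus PA, colored by role. Filled points passed an adjusted p of 0.05 in edgeR with the replicate block: Tagln2, Msn, Tpm4 and Dock1 in PA + PS2 versus control, with Ezr added in PA + PS2 versus PA.

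Among the genes joining integrins to actin, the tensins differed most. Tns3 (tensin 3; chromosome 11, 8431652-8664535, minus strand, GRCm38) was at 16.6 and 29.3 CPM in control repeats 1 and 2, 24 and 29.5 CPM in PA, and 12.6 and 9.91 CPM in PA + PS2. Its groups did not overlap between PA + PS2 and control, with a log2 fold change of -1.03 ± 0.29 (SE). Tns3 fell by the DESeq2 test (adjusted p = 0.0307). It did not pass with the replicate block in edgeR (adjusted p = 0.156) or in DESeq2 (0.294). Talin 1, Tln1, the form that activates integrins in most cells, was at 37.6 and 43.9 CPM in control, 41.6 and 42.4 CPM in PA, and 32.6 and 24.7 CPM in PA + PS2 (log2 fold change against control -0.51 ± 0.15 SE). Its brain-rich paralog talin 2, Tln2, was at 87.4 and 89.1 CPM in control and 92.1 and 75.0 CPM in PA + PS2, a log2 fold change of -0.08 ± 0.11 SE. Neither talin passed in edgeR with the replicate block (adjusted p = 0.115 and 0.800), while Tln1 passed in DESeq2 with the block (0.0494). Tns1 and Vcl (vinculin) had log2 fold changes of -0.84 and -0.57 against control and were not called there.

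In the ILK complex the differences were small and of 1 sign. Fermt2 (kindlin 2, an integrin activator) was at 57.2 and 55.5 CPM in control, 57.2 and 59.2 CPM in PA, and 47.9 and 47.5 CPM in PA + PS2, so that both PA + PS2 libraries lay below the other 4. Lims1 (PINCH 1, an adaptor of ILK) was at 32.5 and 39.6 CPM in control, 38.4 and 37.4 CPM in PA, and 29.5 and 27.4 CPM in PA + PS2. Log2 fold changes against control were -0.24 ± 0.09 SE for Fermt2, -0.34 ± 0.12 SE for Lims1 and -0.27 ± 0.17 SE for Parva (α-parvin), and none passed in edgeR with the replicate block (adjusted p = 0.255, 0.232 and 0.540).

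The signaling kinases of the adhesion lay in narrow ranges and were not called, whereas a Rac activator was. Ptk2, the focal adhesion kinase, was between 152 and 156 CPM in all 6 libraries. Src was at 117 and 118 CPM in control, 123 and 119 CPM in PA, and 121 and 125 CPM in PA + PS2. Their log2 fold changes against control were -0.02 ± 0.07 SE and 0.07 ± 0.07 SE. The scaffold Bcar1 (p130Cas), which Src phosphorylates, was at 67.9 and 72.2 CPM in control, 70.5 and 69.9 CPM in PA, and 70.9 and 79.0 CPM in PA + PS2. Dock1 (a guanine nucleotide exchange factor for Rac that is recruited through Bcar1 and Crk; chromosome 7, 134670654-135173639, plus strand) was called. Its level was 4.74 and 9.65 CPM in control, 6.01 and 12.4 CPM in PA, and 2.58 and 2.18 CPM in PA + PS2, with no overlap of PA + PS2 with either group. Dock1 fell in edgeR with the replicate block (adjusted p = 0.0358) and in DESeq2 (adjusted p = 0.0424), with a log2 fold change of -1.59 ± 0.54 SE. Zyx (zyxin) and Pxn (paxillin), LIM-domain adaptors, had log2 fold changes of -0.38 and -0.18 and did not pass.

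Of the crosslinkers, Actn1 passed in DESeq2 with the replicate block, and none passed in edgeR, with or without the block, or in DESeq2 without it. Flna was at 602 and 334 CPM in control, 488 and 341 CPM in PA, and 520 and 247 CPM in PA + PS2. All 3 repeat 1 libraries lay above all 3 of repeat 2 in Flna, as in Pxn, and Cnn3 had the reverse order. Such an order was seen in 12.4% of genes with repeat 1 above and in 10.4% with repeat 2 above. Actn4 was at 156 and 153 CPM in control, 152 and 161 CPM in PA, and 145 and 147 CPM in PA + PS2 (log2 fold change -0.09 ± 0.07 SE against control). Actn1 (α-actinin 1) had a log2 fold change of -0.44 ± 0.15 SE and an adjusted p of 0.0535 in edgeR with the replicate block, just short of the threshold, and passed with the block in DESeq2 (0.0118) and in the older quasi-likelihood method. Flnc (filamin C) was at -0.60 ± 0.33 SE and did not pass.

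The contractile and thin filament genes held the widest differences. Tagln2 (transgelin 2, an actin-bundling calponin-family protein; chromosome 1, 172500047-172507380, plus strand) was at 6.05 and 10.8 CPM in control, 6.59 and 8.33 CPM in PA, and 1.88 and 2.34 CPM in PA + PS2. The PA + PS2 libraries were the lowest 2 of the 6. It fell in edgeR with the replicate block (adjusted p = 0.00813) and in DESeq2 (adjusted p = 3.32e-05), with a log2 fold change of -2.00 ± 0.36 SE, so that its level fell by 75.0%. Tpm4 (chromosome 8, 72134975-72153142, plus strand) was at 88.2 and 86.8 CPM in control, 89.5 and 76.1 CPM in PA, and 68.7 and 54.0 CPM in PA + PS2. Tpm4 fell with the replicate block (adjusted p = 0.0284 in edgeR and 9.30e-04 in DESeq2) and did not pass in DESeq2 without it (0.0556), with a log2 fold change of -0.51 ± 0.13 SE. Tropomyosins coat actin filaments and set which myosins can bind them.

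Myl9, Cald1 and Myh9 passed DESeq2 but not edgeR with the replicate block. Myl9 (a regulatory light chain of smooth-muscle and non-muscle myosin) was at 5.78 and 12.7 CPM in control, 8.59 and 5.78 CPM in PA, and 3.83 and 2.24 CPM in PA + PS2. Its log2 fold change was -1.60 ± 0.47 SE (DESeq2 adjusted p = 0.0318, edgeR with the replicate block 0.394, DESeq2 with the block 0.331). Cald1 (caldesmon, which restrains actomyosin) was at 49.2 and 65.2 CPM in control, 62.0 and 42.6 CPM in PA, and 33.8 and 24.1 CPM in PA + PS2, a log2 fold change of -0.98 ± 0.25 SE (0.00666 and 0.319, and 0.124 in DESeq2 with the block). Myh9, the heavy chain of non-muscle myosin IIA and so the motor of the set, was at 75.0 and 84.0 CPM in control, 75.4 and 74.7 CPM in PA, and 63.1 and 52.0 CPM in PA + PS2, a log2 fold change of -0.47 ± 0.11 SE (0.04999 and 0.0624, and 0.0125 in DESeq2 with the block). In Myl9, Cald1 and Myh9 the PA + PS2 libraries lay below the other 4. Myh10, the heavy chain of non-muscle myosin IIB, is no member and was more abundant. It was at 652 and 695 CPM in control and 670 and 652 CPM in PA + PS2, a log2 fold change of -0.03 ± 0.07 SE.

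Acta2, Actg2 and Tpm2 were low in PA + PS2 with a wide spread and were not called. Acta2 (chromosome 19, 34241090-34255590, minus strand) was at 53.7 and 87.9 CPM in control, 75.7 and 44.2 CPM in PA, and 32.4 and 19.4 CPM in PA + PS2. Both PA + PS2 libraries were the lowest, with a log2 fold change of -1.45 ± 0.43 SE and an adjusted p of 0.683 in that fit. In edgeR with the replicate block the values were -1.49 ± 0.53 SE and 0.482, and the adjusted p in DESeq2 without the block was 0.200. Tpm2, a muscle-type tropomyosin, was at 3.01 and 4.32 CPM in control, 4.17 and 2.05 CPM in PA, and 1.59 and 1.49 CPM in PA + PS2 (-1.24 ± 0.42 SE). Actg2 (smooth muscle γ-actin) was at 1.58 and 1.07 CPM in control, 1.87 and 0.284 CPM in PA, and 0.574 and 0.715 CPM in PA + PS2. Cnn3 was at 125 and 166 CPM in control, 135 and 156 CPM in PA, and 116 and 138 CPM in PA + PS2, with overlapping groups. Cnn2 and Tpm1 had log2 fold changes of -1.01 ± 0.29 SE and -0.41 ± 0.10 SE and did not pass in edgeR with the replicate block (adjusted p = 0.208 and 0.0576) or in DESeq2 without it (0.0555 and 0.0642). Both fell in DESeq2 with the block (0.00267 and 0.00895).

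Of the genes for the actin cortex and nuclear lamina, moesin was called. Msn (moesin, an ERM protein linking actin to membrane receptors; X chromosome, 96096042-96168552, plus strand) was at 16.3 and 28.4 CPM in control, 21.2 and 25.6 CPM in PA, and 8.10 and 7.37 CPM in PA + PS2. The 2 PA + PS2 libraries were close together and below the other 4. Msn fell in edgeR with the replicate block (adjusted p = 0.0107) and in DESeq2 (adjusted p = 1.81e-05), with a log2 fold change of -1.53 ± 0.28 SE, so that its level fell by 65.4%. Ezr (ezrin, a second ERM protein; chromosome 17, 6738041-6782784, minus strand) was at 22.9 and 32.8 CPM in control, 28.2 and 38.7 CPM in PA, and 18.0 and 22.9 CPM in PA + PS2, with a log2 fold change of -0.45 ± 0.23 SE and no call (adjusted p = 0.0963 with the replicate block). Lmna (lamin A/C of the nuclear envelope) was at 37.5 and 36.3 CPM in control, 37.8 and 37.0 CPM in PA, and 32.7 and 24.1 CPM in PA + PS2 (-0.38 ± 0.14 SE, adjusted p = 0.173 with the block).

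**Figure D3:**
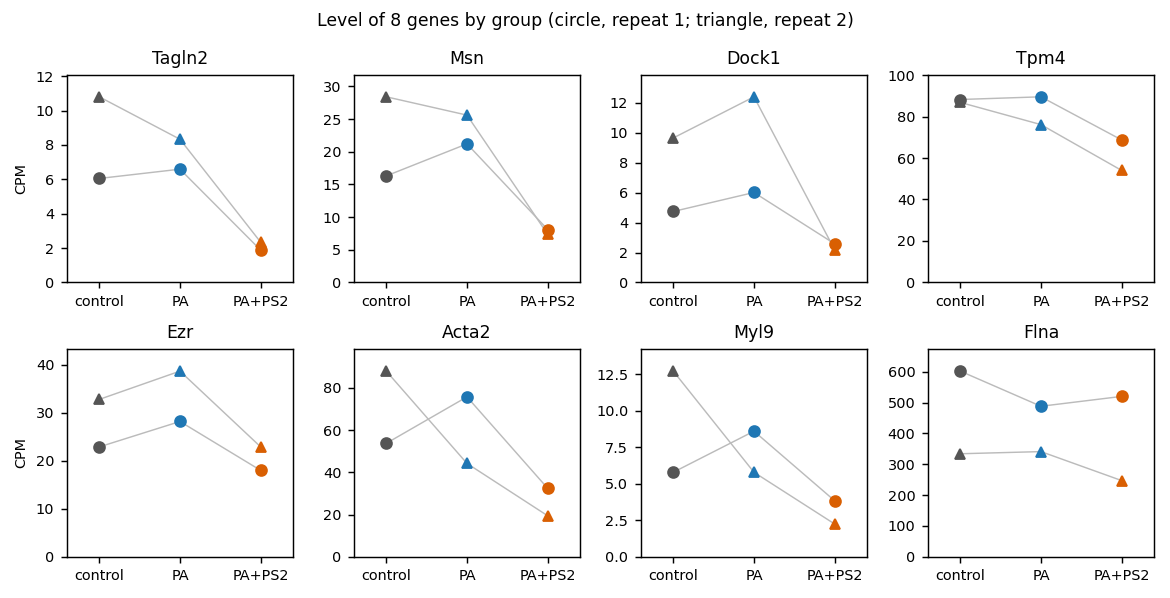
CPM in each library, by group, for 8 members, with circles for repeat 1, triangles for repeat 2 and lines joining libraries of the same repeat number. In Tagln2, Msn, Dock1, Tpm4, Acta2 and Myl9 both PA + PS2 libraries lie below all 4 others, and in Flna the repeat 1 libraries lie above those of repeat 2.

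Srf, the transcription factor of the set, was not called. It was at 62.3 and 61.5 CPM in control, 57.3 and 57.9 CPM in PA, and 55.1 and 62.9 CPM in PA + PS2, a log2 fold change of -0.07 ± 0.09 SE between PA + PS2 and control. To set the promoters beside these values, windows of 250 bases before to 50 bases after each gene's start were searched for the CArG box, the site SRF binds, using RefSeq promoters (GRCm38.p6), in which 29 of the 35 genes had an entry. Only exact matches were counted, CC and GG with nothing but A or T in the core between them. Near matches, such as ccctatatgg in the Acta2 window, were left out, so a gene without a match may still hold a variant box. An exact CArG box was found in 5 of the 29 genes (17.2%), Vcl, Fermt2, Cnn2, Myl9 and Srf, against 1.81% of 27025 genes with an entry. The hexamer GGAATG, bound by TEAD factors and counted on both strands, was found in 9 of 29 genes (31%) against 16.6% of all. The genes were picked partly as known SRF-type genes, so these shares are a description, and a match does not show that a factor binds there. The 4 stretches below, shown because they hold the CArG boxes (capitals) of a contractile gene pair, a linker and Srf itself, end before the first annotated transcribed base. In Vcl the GGAATG match is in capitals too. Positions are counted from the transcript start that each RefSeq window was built on, with negative numbers upstream.
Cnn2: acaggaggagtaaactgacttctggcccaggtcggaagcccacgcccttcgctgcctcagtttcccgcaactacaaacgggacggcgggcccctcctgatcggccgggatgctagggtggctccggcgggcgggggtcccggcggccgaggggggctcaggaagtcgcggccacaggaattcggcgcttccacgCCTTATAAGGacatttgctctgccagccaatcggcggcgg
Myl9: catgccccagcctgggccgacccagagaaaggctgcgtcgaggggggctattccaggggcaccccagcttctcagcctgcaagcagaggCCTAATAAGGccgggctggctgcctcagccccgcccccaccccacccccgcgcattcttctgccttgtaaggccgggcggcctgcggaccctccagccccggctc
Vcl: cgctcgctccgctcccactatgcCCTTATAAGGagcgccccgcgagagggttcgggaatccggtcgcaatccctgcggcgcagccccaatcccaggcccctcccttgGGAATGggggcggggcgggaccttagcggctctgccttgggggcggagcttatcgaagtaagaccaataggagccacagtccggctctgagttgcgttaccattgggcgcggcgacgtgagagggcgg
Srf: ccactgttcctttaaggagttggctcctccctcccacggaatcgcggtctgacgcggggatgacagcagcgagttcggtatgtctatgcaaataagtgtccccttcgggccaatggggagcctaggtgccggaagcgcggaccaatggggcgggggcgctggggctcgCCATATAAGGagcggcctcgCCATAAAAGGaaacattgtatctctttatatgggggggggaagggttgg
The stretches are chr10:79988350-79988583 (plus strand), chr2:156775214-156775407 (plus), chr14:20929148-20929382 (plus) and chr17:46556176-46556412 (minus), each written 5′ to 3′ on the gene's strand. The boxes begin at -56 in Cnn2, -161 in Myl9, -227 in Vcl, and -82 and -62 in Srf. For Fermt2 only a short stretch around its box is shown (chr14:45530250-45530279, minus strand, box in capitals, beginning at -204).
Fermt2: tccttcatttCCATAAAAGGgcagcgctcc
Tagln2, with the lowest fold change of the set, had no CArG box in its window but 2 matches to GGAATG on the opposite strand, read as CATTCC (capitals), at -118 and -80 of its RefSeq start (chr1:172500118-172500143 and chr1:172500156-172500181, plus strand). The gene's span given above begins further upstream, so both matches lie inside that span.
Tagln2 first match: ctttacggctCATTCCtgcctactga
Tagln2 second match: agcgctccagCATTCCacgcggcggc
Of the genes with an exact CArG box, Myl9 passed in DESeq2 without the replicate block and Cnn2 in DESeq2 with it, both in PA + PS2 versus control. Vcl, Fermt2 and Srf passed in neither tool, with or without the block.

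The second comparison, PA against control, asked whether the genes differed with the peptide material alone. None of the 34 members was called, and none of the 17299 genes (0% called), in edgeR or in DESeq2 without the replicate block, or in edgeR with it; DESeq2 with the block called no member (0.00578% of 17299 genes lower and 0% higher). No member had an unadjusted p under 0.05 in edgeR, against 0.798% of all genes. The median log2 fold change of the members was -0.01, of either sign with single libraries left out (-0.08 to 0.04), and their values ran from -0.36 (Myl9) to 0.36 (Dock1). Both PA libraries lay below both controls in 1 member, Srf (9.69% of all genes), and above in 1, Src (12.1%).

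In many members the 2 repeats had opposite signs. PA lay above control in repeat 1 and below it in repeat 2 in 23 of 34 members, including all 12 contractile genes, whereas 27.4% of all genes had this order. Control 2 lay above control 1 in 25 members (51.5% of all genes), and PA 2 lay below PA 1 in 23 (50.4%). The contractile median was 0.27 in repeat 1 and -0.70 in repeat 2. In Acta2 the log2 ratio of PA to control was 0.49 in repeat 1 and -0.99 in repeat 2, and in Myl9 it was 0.57 and -1.12. Tpm2 had 0.46 and -1.05, Cnn2 0.29 and -0.78, and Cald1 0.33 and -0.61. Each of these ratios sets 1 library against 1 library, so the difference between repeats was not tested. PA + PS2 against control, by comparison, was below 0 in both repeats for these 5 genes, for example -0.73 and -2.18 in Acta2.

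**Figure D4:**
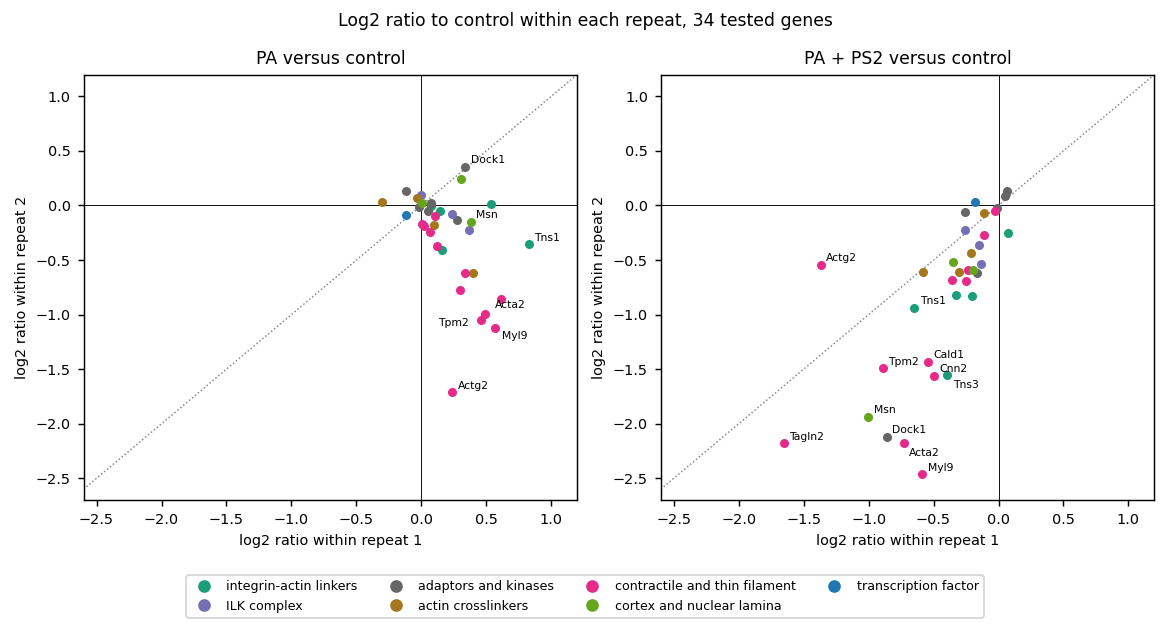
Log2 ratio to control within repeat 1 (horizontal axis) and within repeat 2 (vertical axis) for each of the 34 tested members, colored by role, for PA (left) and PA + PS2 (right). PA values for the contractile genes lie right of 0 and below 0, and most PA + PS2 values lie below 0 on both axes.

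The third comparison set PA + PS2 against PA, the groups whose names differ by the added polymer. It shares the PA + PS2 libraries with the first comparison, so the 2 are not independent. The median log2 fold change of the members was -0.42 (-0.42 in repeat 1 and -0.45 in repeat 2), against 0.00 over all genes. Of the 34 values 29 were below 0, against 48.9% of all genes. In edgeR no member and no gene was called (0%), while 21 members had an unadjusted p under 0.05, against 7.6% of genes. With the replicate block, 5 members fell and none rose, Tagln2, Msn, Tpm4, Ezr and Dock1, against 1.39% of genes lower and 0.225% higher. DESeq2 called 5 lower, Tns3, Tagln2, Cald1, Msn and Dock1, against 1.31% of 13274 genes, and 0 higher, against 0.196%. With the block DESeq2 called 9 lower (Tagln2, Msn, Tpm4, Ezr, Dock1, Actn1, Tln1, Tns1 and Zyx), against 1.97% of 15622 genes, and 0 higher, against 0.365%. Without PA + PS2 2 the replicate block called none of the members.

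Moesin and ezrin both fell here with the replicate block. Rdx (radixin), the third ERM gene, which is no member, was at 120 and 122 CPM in PA and 103 and 109 CPM in PA + PS2 and did not pass (edgeR with the block, adjusted p = 0.275). The level of Msn fell by 67.0% (log2 fold change -1.60 ± 0.28 SE, adjusted p = 0.00467 in edgeR with the replicate block). That of Ezr fell by 39.0% (-0.71 ± 0.23 SE, 0.00764) and passed in DESeq2 with the block (adjusted p = 2.41e-04) but not without it (0.121). Dock1 had the lowest value of the set, -1.95 ± 0.52 SE (adjusted p = 0.00652 with the block), so that its level fell by 74.1%. For Tagln2 the log2 fold change was -1.82 ± 0.37 SE (0.00539) and for Tpm4 it was -0.43 ± 0.13 SE (0.0339). Tns3 and Cald1 passed in DESeq2 (adjusted p = 0.00182 and 0.0243) but not in DESeq2 with the block (0.0833 and 0.289). Their log2 fold changes were -1.25 ± 0.29 SE and -0.85 ± 0.25 SE. Both PA + PS2 libraries lay below both PA libraries in 23 members (18.4% of all genes) and above in 1, Bcar1 (16.7%).

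Lists of other adhesion and actomyosin genes had medians nearer 0. In PA + PS2 versus control, 48.1% of all genes tested were below 0. Of 31 tested genes of a list of other focal adhesion genes, 22 were below 0 in PA + PS2 versus control, with a median log2 fold change of -0.07; 0 passed in edgeR with the replicate block and 2 in DESeq2, Sorbs3 (vinexin) and Pdlim5, both lower. Of 33 other actomyosin genes, 26 were below 0, with a median of -0.04. Against PA, the focal adhesion genes Pdlim1 and Kank2 (an adhesion-belt protein) passed both in edgeR with the replicate block and in DESeq2, while Pdlim5 and Csrp1 passed in DESeq2 only, all lower in PA + PS2.

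Integrins are the receptors at the head of the pathway. In PA + PS2 versus control, 13 of 15 tested subunits were below 0 (48.1% of all genes), with a median log2 fold change of -0.49. Itgb1, the β subunit shared by most matrix receptors including those for laminin, was at 109 and 132 CPM in control, 121 and 129 CPM in PA, and 83.4 and 83.5 CPM in PA + PS2. It fell with a log2 fold change of -0.54 ± 0.10 SE (adjusted p = 0.0183 in edgeR with the replicate block, 0.00426 in DESeq2). Itgav fell as well (-0.84 ± 0.18 SE, 0.0343 and 0.0115), and Itgb5 passed in DESeq2 alone (-1.83 ± 0.43 SE, 0.00136). Itgb5 did not pass in DESeq2 with the block (adjusted p = 0.131). Against PA, 5 subunits fell in edgeR with the block, Itga6 (a laminin receptor subunit), Itgav, Itgb1, Itgb5 and Itgb8, against 1.39% of all genes. Of these, Itga6 did not pass in DESeq2 without the block (adjusted p = 0.342) and Itgb5 did not pass in DESeq2 with it (0.118).

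Targets and partners of YAP and TEAD, factors that respond to adhesion and tension, had a median log2 fold change of -1.17 in PA + PS2 versus control. There 10 of 10 tested genes were below 0, against 48.1% of all genes. The 3 that fell with the replicate block in edgeR were Ccn1 (CYR61) at -1.21 ± 0.22 SE (adjusted p = 0.0140), Axl (a receptor tyrosine kinase) at -1.91 ± 0.35 SE (0.0236) and Tead2 at -1.61 ± 0.41 SE (0.0183). In that fit 0.538% of all genes were called lower. Ccn2 (CTGF) passed in DESeq2 only (-1.87 ± 0.35 SE, adjusted p = 5.95e-06). Against PA, Ccn1, Axl and Tead2 fell in edgeR with the block, where 1.39% of all genes fell. There Ccn2 and Wwtr1 (TAZ) passed in DESeq2 only. Wwtr1 did not pass in DESeq2 with the block (adjusted p = 0.511). These lists were not tested against other genes.

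Markers of other cell types were set beside these genes. Summed levels in control repeats 1 and 2, PA 1 and 2, and PA + PS2 1 and 2 were 24.2, 29.4, 35.6, 31.8, 13.9 and 11.9 CPM for 10 mural markers, of which 6, Myh11 and Des among them, were under 1 CPM in every library. Of the 6 mural markers tested, 5 lay below 0 and 1 above in PA + PS2 versus control, and 4 below and 2 above against PA. Mcam was the mural marker that fell against control in edgeR with the replicate block, where 0.538% of all genes fell. Against PA, Rgs5, Pdgfrb and Mcam fell in that fit, against 1.39% of all genes. For 10 fibroblast markers the sums were 92.4, 70.0, 95.9, 57.7, 78.8 and 35.4 CPM, with Slc6a13 at 0 throughout, and PA + PS2 overlapped control. Endothelial markers summed to 5.33 to 11.6 CPM, with Tie1 at 0 and 7 of 10 under 1 CPM.

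Markers of oligodendrocyte precursors, progenitors and dividing cells were also lowest in PA + PS2. The sums for 6 oligodendrocyte precursor markers were 33.7, 81.9, 24.1, 123, 8.22 and 7.18 CPM, and for 6 markers of dividing cells 61.9, 124, 68.3, 173, 30.5 and 32.5 CPM. Progenitor markers, Nes and Vim among the 9, summed to 295, 483, 349, 609, 226 and 255 CPM. Astrocyte markers summed to 225, 312, 248, 454, 211 and 257 CPM. In PA + PS2 versus control, 7 of the 10 lay below 0, with a median log2 fold change of -0.69, and 0 fell in edgeR with the replicate block. In PA versus control all 10 astrocyte markers lay above 0, with a median of 0.80. Against PA, 9 of 10 of them lay below 0 in PA + PS2, with a median log2 fold change of -1.42. Of the 10, 6 fell in edgeR with the replicate block (Aqp4, Aldh1l1, Gja1, Aldoc, Mlc1 and Sox9), against 1.39% of all genes. In Aldoc the groups overlapped, with 4.13 and 20.2 CPM in PA and 1.66 and 4.97 CPM in PA + PS2. In the same fit and comparison 5 of 6 markers of dividing cells, 3 of 9 progenitor markers and 1 of 6 oligodendrocyte precursor markers fell. Of the 10 neuronal markers 1 fell there, Gad1 (log2 fold change -0.30, adjusted p = 0.0492), and 0 rose. DESeq2 without the block called 0 astrocyte, 0 progenitor and 0 neuronal markers against PA. It called 3 of 6 markers of dividing cells and 2 of 6 oligodendrocyte precursor markers lower, against 1.31% of 13274 genes. Against control, 5 of the 10 neuronal markers lay below 0 and 5 above. Gad1 had a log2 fold change of -0.32 ± 0.12 SE and Neurod6 of 0.29 ± 0.07 SE. Both passed in DESeq2 with the block (adjusted p = 0.0123 and 0.0354) but not in edgeR with it (0.0574 and 0.0830). The 8 microglial markers summed to 7.48 to 9.59 CPM, with 6 of them under 1 CPM in every library. Control 2 and PA 2 were the libraries highest in oligodendrocyte precursor, dividing, progenitor and astrocyte markers. They were also the 2 highest libraries in 8 of 34 members, Tln1, Ptk2, Dock1, Tns3, Tagln2, Cnn3, Ezr and Msn, against 12.5% of all genes. In Acta2 control 2 was the highest and PA 2 the fourth. The part of these cells in the levels of the adhesion and contractile genes was not tested.

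**Figure D5:**
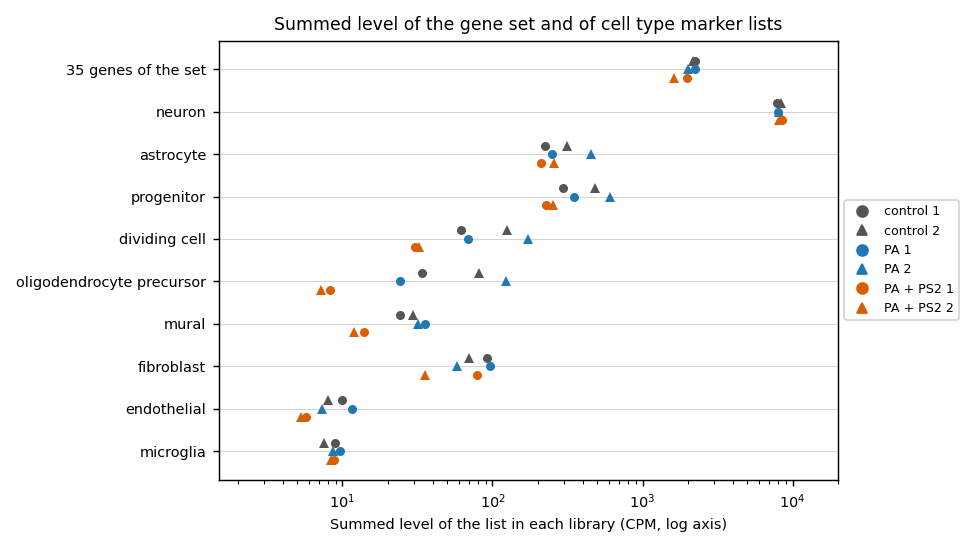
Summed CPM of each cell type marker list in each library on a log axis, beside the sum over the 35 members. The neuronal sum is level at 7830 to 8460 CPM, which does not show single markers. The mural, oligodendrocyte precursor and dividing sums are lowest in the 2 PA + PS2 libraries.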

How the data were processed

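RNA was sequenced from 6 libraries in 3 groups of 2. Each deposited file gives 1 library's whole-number counts for Ensembl genes, unnormalized, per the file headers. Tools listed in the submitters' processing notes, with no role or setting, are STAR 2.7.5, cutadapt 4.2, DESeq2 1.14.1 and HTSeq 2.0.2, with mm10 as the build; the kit named is for total RNA and the molecule label reads polyadenylated RNA. Coordinates are from GENCODE M21 on GRCm38.

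Genes were filtered with filterByExpr and fitted with edgeR 4.0.16 (quasi-likelihood, TMM, 1 model over 6 libraries, 3 residual degrees of freedom; R 4.3.3). Adjusted p-values are Benjamini-Hochberg over all 17299 genes, with a threshold of 0.05. The same model with the repeat number as a block had 2 residual degrees of freedom. The labels name no shared culture, so the pairing rests on the counts: deviations of same-numbered libraries correlated at 0.35, 0.36 and 0.21 over the 3 pairs of groups. Each group of 2 libraries gives 1 such deviation, so these correlations cannot establish the pairing. Of the 12 contractile genes, control 2 lay above control 1 in 10 (51.5% of all genes), while PA 2 lay below PA 1 in 10 (50.4%). DESeq2 1.42.0 and limma-voom (limma 3.58.1), other scalings, filters and leaving out each library were alternatives. Log2 ratios within a repeat used a prior count of 2. Scripts were tested on simulated data. The median SE of a log2 fold change (PA + PS2 versus control) was 0.66 under 1 CPM and 0.08 above 100 CPM.

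Members and gene lists were chosen with earlier results of these data known. Members were named with every library's value if they passed in any of the 3 fits, were among the 2 highest of their role per kilobase, or among the 8 of largest fold change with a mean of at least 1 CPM. Calls among the other actomyosin genes are not reported here.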

Additional observations from a re-analysis of the deposited data

How the results depend on the processing

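No member was called without the replicate block by edgeR with other size factors, library totals, no filter, a filter of 50 counts in 2 libraries, limma-voom, only the 2 groups compared, the older quasi-likelihood method, or each library left out (0 to 0 members). With DESeq2, 7 members were called in PA + PS2 versus control and 5 in PA + PS2 versus PA. The replicate block called 4 and 5, with DESeq2 9 and 9, with RLE size factors 4 and 5, with the stricter filter 2 and 4, and, chosen after seeing the data, with the older quasi-likelihood method 4 and 6 and with limma-voom 5 and 6. Leaving out a library with the replicate block gave 0 to 12 members against control (0 without control 2 or PA + PS2 2, 7 without control 1, 12 without either PA library, 11 without PA + PS2 1) and 0 to 9 against PA (0 without PA + PS2 2, 8 and 7 without control 1 and 2, 5 and 4 without PA 1 and 2). PA versus control gave 0 members under every alternative run.

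Over all genes, 0 passed in edgeR in PA + PS2 versus control, 117 with the replicate block and 130 with DESeq2; against PA the counts were 0, 280 and 200. The median over the members in PA + PS2 versus PA was -0.42, -0.41 with no filter, -0.58 to -0.30 with a library left out and -0.54 to -0.34 with the replicate block and a library left out (-0.53 without PA 2). In PA versus control the median over the members, -0.01, had no fixed sign: it was -0.08 to 0.04 with a library left out, and with the replicate block -0.15 without control 1 and 0.13 without control 2, with 19, 28 and 6 members below 0 in the full fit and these 2. No named value that passed a test changed sign under the alternatives run. With 2 libraries a group, the SE of 0.66 for genes under 1 CPM limits what could be seen for Tagln, and Ilk was not tested.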
